A study of Homo sapiens with 8 samples.

Results

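MN1 and 7 genes of retinoic acid signalling were followed through the N6-methyladenosine (m6A) peak lists of human osteosarcoma cells. MN1 was included as the gene followed up in the study. The others were CRABP2, DHRS3, RARA, RARG and RXRA, which carry, limit or sense retinoic acid, and NCOA3 and NRIP1, cofactors of its receptors. All rows with 1 of these 8 gene names were taken, which gave 156 of the 130622 peaks listed, and joining overlapping peaks gave 58 of 47665 sites. The 8 genes were 8 of the 8758 genes with any peak.

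MeRIP-seq pulls down RNA pieces with an m6A antibody and sets them against input, the same RNA before the pull-down. The groups were U2OS cells with a hairpin against METTL14 (shMETTL14), U2OS cells with a control hairpin (shNC), 143B cells with shMETTL14 and 143B cells with shNC, with the hairpins delivered by lentivirus. Both are osteosarcoma cell lines, and 143B is a RAS-transformed derivative of HOS. Each group had 1 input and 1 immunoprecipitated library, and the 4 immunoprecipitated libraries have 1 peak list each, so differences between groups stand on single lists and were not tested. Neither the time after infection nor the number of hairpin sequences is stated in the labels.

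METTL14 is the RNA-binding partner of METTL3, and together they methylate adenosines in messenger RNA, most often near stop codons and in long exons. All-trans-retinoic acid binds the receptors RARA and RARG, which sit on DNA as pairs with RXRA. Without ligand the pair holds corepressors, and ligand exchanges these for coactivators of the NCOA family. In human cells MN1 is a transcriptional coregulator that acts with NCOA3 and p300 on RAR-RXR pairs, and high MN1 expression has been linked to resistance to retinoic acid in acute myeloid leukaemia.

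The lists held 10822 sites in U2OS shMETTL14 and 11699 in U2OS shNC, and 12886 in 143B shMETTL14 and 12258 in 143B shNC. Read depth is unknown because the lists carry no counts. METTL14 had 2 sites in U2OS shMETTL14 and 3 in U2OS shNC, and 2 in 143B shMETTL14 and 1 in 143B shNC, but sites do not measure its RNA, so the knockdown could not be checked. Of the osteoblast-lineage markers, RUNX2, COL1A1, SPARC and TWIST1 had a site in some list, while SP7, COL1A2 and ALPL had none. Of 5 epithelial markers 2 did (KRT8 and KRT18), and of 4 blood and 3 endothelial markers 0 did. A site shows that a gene's RNA was present and enriched, and the lists give no RNA level. A lower methylated share and less RNA of a gene therefore cannot be told apart, and neither can fewer cells and less RNA per cell.

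The 8 genes together had 13 sites in U2OS shMETTL14 and 22 in U2OS shNC, and 8 sites in 143B shMETTL14 and 15 in 143B shNC. An shNC site whose spliced blocks overlap no shMETTL14 site of the same line by 1 base on the same strand is called lost, and an shMETTL14 site with no shNC overlap is called gained. These words describe the lists, not a measured change in methylation. In U2OS 10 of the 22 shNC sites were lost (45.5%, exact Clopper-Pearson 95% interval 24.4 to 67.8), against 31.2% of all sites in that list. In 143B 8 of the 15 shNC sites were lost (53.3%, interval 26.6 to 78.7), against 24.6% of all sites. Gained sites were 1 of 13 in U2OS shMETTL14 (7.69%, interval 0.195 to 36.0), against 24.9% of all sites, and 1 of 8 in 143B shMETTL14 (12.5%, interval 0.316 to 52.7), against 32.0%. The intervals cover counting error only, and sites of 1 gene are not independent.

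MN1 held 5 of the 10 losses in U2OS. Without MN1 the U2OS count was 5 of 16 sites lost (31.2%), the share of the whole list, and the 143B count was 7 of 14. The U2OS share also depended on the less enriched peaks: with only peaks at or above their list's median fold enrichment, 1 of 7 sites was lost (14.3%), against 41.8% of all such sites. In 143B, restricting both lists to p-values no larger than the shNC median left 4 sites, of which 0 were lost, against 14.9% of all such sites. The other filter left the share above that of all sites in each line. In U2OS the p-value filter gave 4 of 7 sites lost (57.1%), against 23.2% of all such sites, and 3 of the 4 were MN1 sites. In 143B the fold enrichment filter gave 4 of 8 sites lost, against 37.8% of all such sites.

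**Figure D1:**
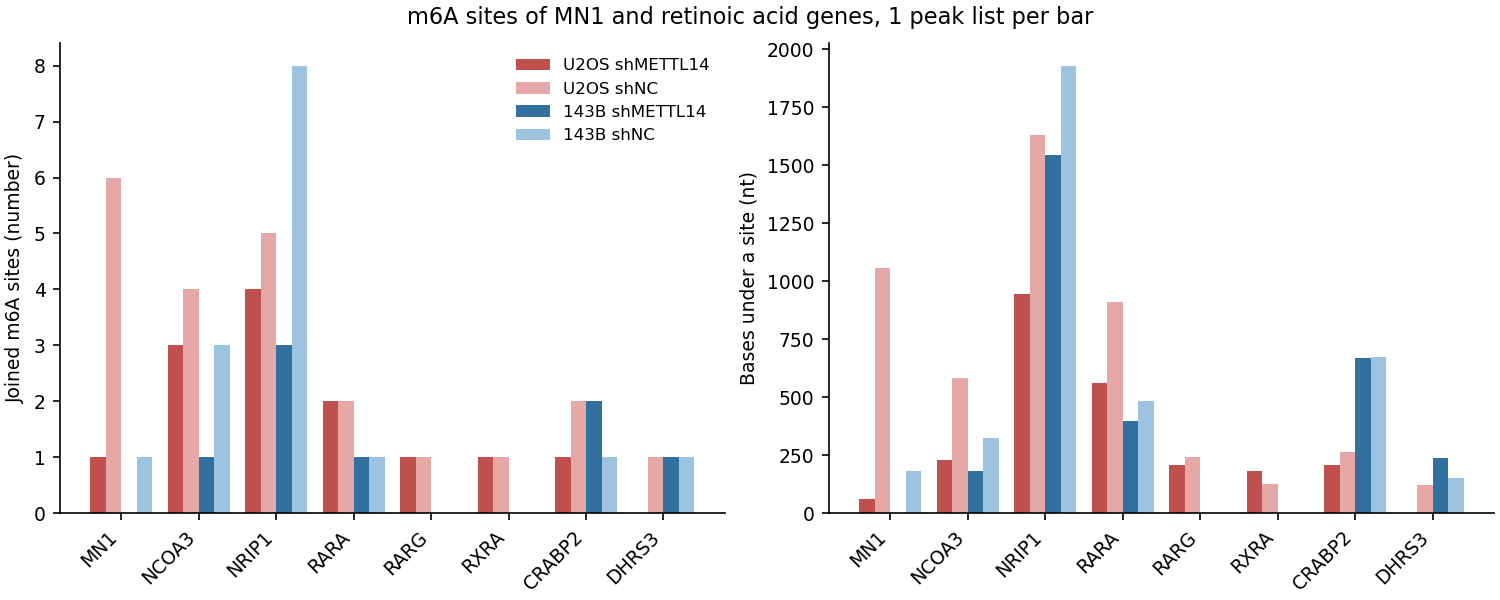
Joined m6A sites (left, number) and bases under a site (right, nt) for each of the 8 genes in the 4 peak lists, 1 list per bar and no replicates. MN1 stands at 1 site in U2OS shMETTL14 and 6 in U2OS shNC, NRIP1 at 3 in 143B shMETTL14 and 8 in 143B shNC, and RARG and RXRA have no bar in 143B.

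MN1 lies on the minus strand of chromosome 22, and all coordinates here are of build hg19, counted from 1. Its peaks were listed on 1 transcript, ENST00000302326.4, of 7556 nt. MN1 had 1 site in U2OS shMETTL14 and 6 in U2OS shNC, and 0 sites in 143B shMETTL14 and 1 in 143B shNC. The sites covered 61 nt of the transcript in U2OS shMETTL14 (0.807%) and 1056 nt in U2OS shNC (14.0%), and 0 nt in 143B shMETTL14 and 181 nt in 143B shNC (2.40%). U2OS shNC thus carried most of the MN1 sites of the series.

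The U2OS shMETTL14 site lay in the coding sequence at 28192989 to 28193049, with the authors' fold enrichment at 4.14 and p-value at 0.0017. Fold enrichments and p-values are the authors' values for each peak and are read only within their own list. This site shared 31 nt with the strongest MN1 site of U2OS shNC, which ran from 28147023 to 28193019 over an intron of 45666 nt. The shNC site covered 269 nt of the upstream exon and 62 nt of the downstream one. That shNC site had a fold enrichment of 4.27 and a p-value of 5.01e-18, at or beyond 85.0% of the peaks of its list. The shMETTL14 site stood at or beyond 4.05% of the peaks of its own list by p-value. By fold enrichment the sites stood alike, at or above 61.9% of the peaks in shMETTL14 and 63.2% in shNC. The MN1 place that both U2OS lists held thus differed in width and in standing by p-value, and little in standing by fold.

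The lost MN1 sites of U2OS lay on both sides of that place. Downstream of the exon junction, the 3' UTR site at 28146633 to 28146903 had a fold enrichment of 2.93 and a p-value of 6.92e-08. Upstream of it, coding sites lay at 28193139 to 28193319 (fold enrichment 2.46, p-value 3.98e-06) and at 28193499 to 28193589 (2.64, 0.000234). The first of these ended 89 nt from the shMETTL14 site, so when sites within 100 nt count as shared, 4 of 6 MN1 sites were lost in U2OS. Near the 5' end of the coding sequence a site covered 28196377 to 28196497 (fold enrichment 2.69, p-value 1.58e-06). Requiring 50% of the bases of each site, 6 of 6 were lost.

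At the 5' UTR of MN1 neither shMETTL14 list held a site, and both shNC lists did. The U2OS shNC site covered 28196976 to 28197036 with a fold enrichment of 2.41 and a p-value of 0.00251, among the weakest of its list, at or beyond 1.84% of its peaks. By fold enrichment that site stood at or above 18.0% of its list. In 143B shNC the site covered 28196826 to 28197006 with a fold enrichment of 14.3, at or above 96.2% of that list. Its p-value of 3.80e-05 stood at or beyond 40.9% of that list. The sites shared 31 nt. Of the 8 places of the 8 genes held by both shNC lists, this was the 1 place held by neither shMETTL14 list. Over all genes, 5.07% of the 7087 places in both shNC lists were in neither shMETTL14 list.

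**Figure D2:**
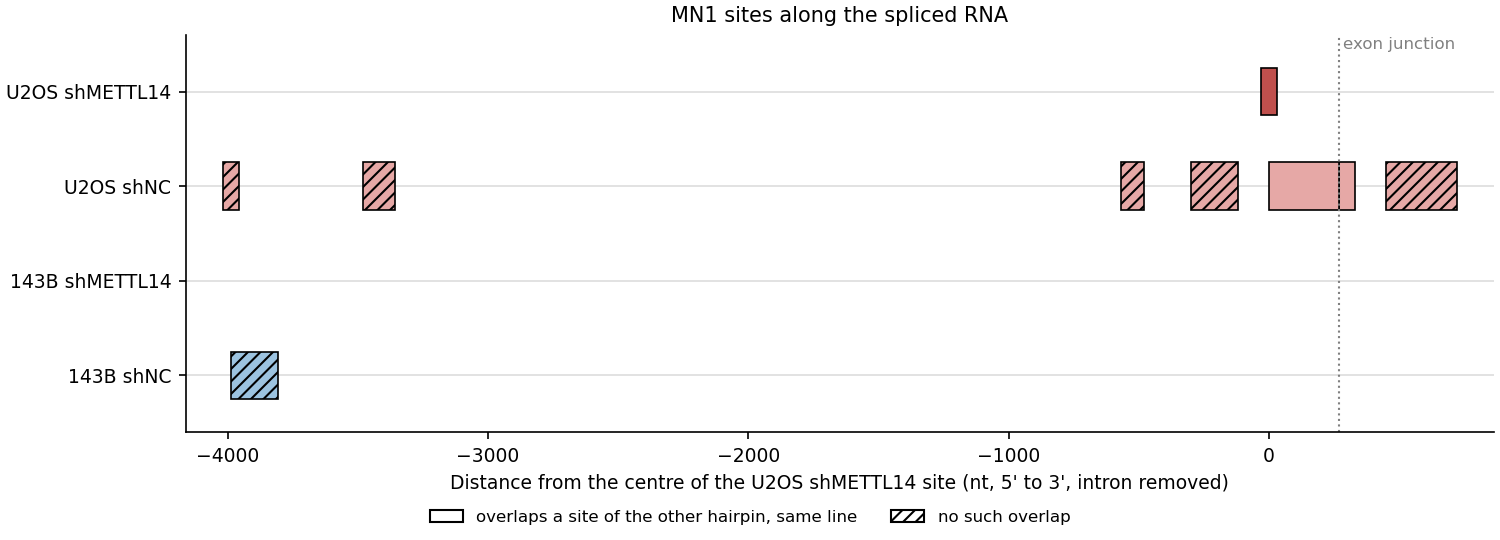
MN1 sites along the spliced RNA in the 4 lists, as distance in nt from the centre of the U2OS shMETTL14 site, 5' to 3', with the intron removed at the junction found in the U2OS shNC list and no further intron assumed. Plain boxes overlap a site of the other hairpin in the same line and hatched boxes do not: U2OS shMETTL14 has 1 plain box, U2OS shNC 1 plain and 5 hatched, and 143B shNC 1 hatched at the 5' UTR.

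By p-value the MN1 losses of U2OS were spread over 3 of 4 classes, while by fold enrichment they were all low in the list. The lost MN1 site of 143B shNC stood at or above 96.2% of its list by fold enrichment, but only at or beyond 40.9% by p-value. When the U2OS shNC sites were split into 4 equal classes by their smallest p-value, 64.9% of the weakest class was lost over all genes, then 43.8%, 15.3% and 0.684% of the strongest class. MN1 had 1 site in the weakest class, 1 in the next, 3 in the third and 1 in the strongest. Lost were 1, 1, 3 and 0 of these, so MN1 lost 3 of 3 sites in the class where 15.3% of all sites were lost. By fold enrichment the 5 lost sites stood at or above 18.0% to 33.6% of the list and the kept site at or above 63.2%, so with peaks at or above the median fold alone 0 of 1 MN1 sites was lost. Among the 276 genes with at least 5 sites in U2OS shNC, 12 lost at least 80% of them (4.35%), MN1 included, and the median gene lost 28.6%. MN1 was taken because the study followed it up, and with 5 of 6 sites lost it stands just above both cuts. Its place among the 12 therefore describes these lists and is not independent support for a change at MN1. Whether MN1 RNA itself was lower with shMETTL14 was not tested.

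NCOA3, a coactivator of the p160 family that recruits histone acetyltransferases to liganded nuclear receptors, lies on the plus strand of chromosome 20. It had 3 sites in U2OS shMETTL14 and 4 in U2OS shNC, and 1 site in 143B shMETTL14 and 3 in 143B shNC. Its peaks came from 4 transcripts. All sites but those of 1 place in the 3' UTR were in the coding sequence. NCOA3 was the 1 gene of the 8 with a gained site, and it had 1 in each line.

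Both NCOA3 gains lay next to a loss. In U2OS the shMETTL14 site at 46275922 to 46275982 (fold enrichment 2.18, p-value 0.00347) ended 19 nt before the lost shNC site at 46276002 to 46276093 (3.36, 6.17e-05). In 143B the shMETTL14 site at 46275824 to 46276003 (2.92, 2.45e-05) ended 8 nt before the lost shNC site at 46276012 to 46276072 (2.01, 0.00324). In both lines the shMETTL14 site lay on the 5' side of the shNC site. In each pair 1 site was among the weakest of its list and was listed on 1 transcript. By p-value the U2OS shMETTL14 site stood at or beyond 0.527% of its list's peaks, and the 143B shNC site at or beyond 1.23%. Counting sites within 100 nt as shared, NCOA3 and the other 7 genes gained 0 sites in either line, as both gains lay closer than that to an shNC site.

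**Figure D3:**
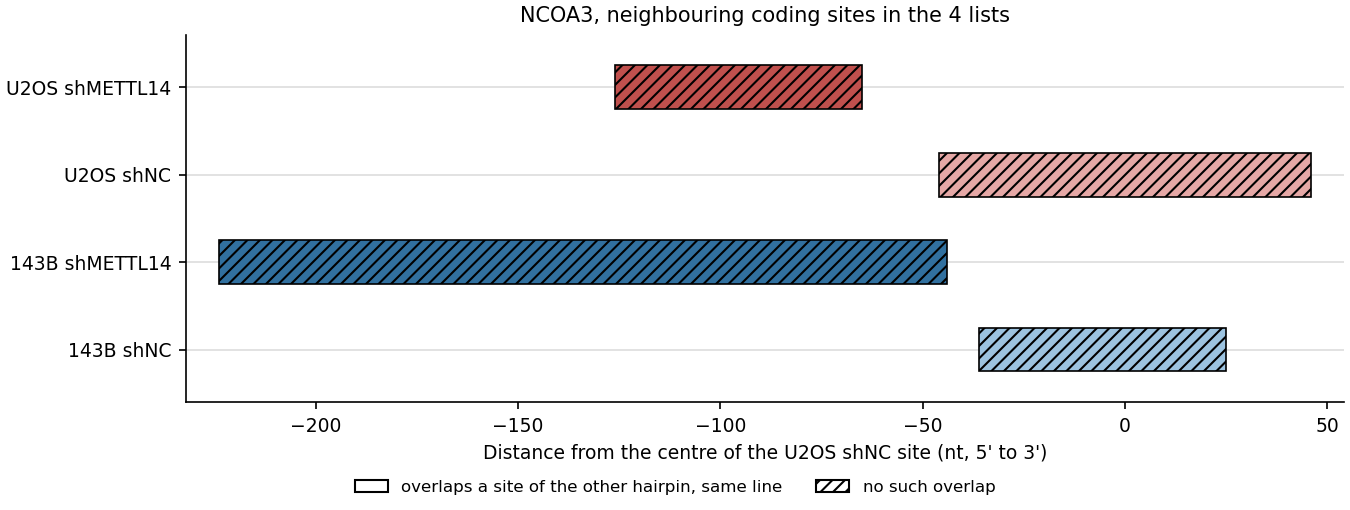
Neighbouring NCOA3 coding sites in the 4 lists, as distance in nt from the centre of the U2OS shNC site, 5' to 3', hatched because none overlaps a site of the other hairpin in its line. Gaps of 19 nt in U2OS and 8 nt in 143B separate the shMETTL14 box from the shNC box.

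Elsewhere on NCOA3 the lines held different places. U2OS alone held a coding place at 46256316 to 46256420 in shMETTL14 and 46256346 to 46256469 in shNC. It also alone held the 3' UTR place, at 46284782 to 46284844 in shMETTL14 (fold enrichment 5.81) and 46284842 to 46285053 in shNC (6.85). A spliced U2OS shNC site between 46252725 and 46254176 was lost. 143B shNC held coding sites at 46265333 to 46265393 and, over a splice junction, between 46277811 and 46279885, and both were lost. None of these NCOA3 sites had a p-value below 0.000148.

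NRIP1, a corepressor that binds liganded nuclear receptors and is itself induced by retinoic acid in human cells, lies on the minus strand of chromosome 21 and had the most sites of the 8 genes over the 4 lists together, although in U2OS shNC MN1 had more. There were 4 sites in U2OS shMETTL14 and 5 in U2OS shNC, and 3 sites in 143B shMETTL14 and 8 in 143B shNC. The covered length was 944 nt in U2OS shMETTL14 and 1632 nt in U2OS shNC, and 1544 nt in 143B shMETTL14 and 1929 nt in 143B shNC. The lists of 143B thus differed more, in proportion, in sites than in bases.

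All 4 lists held NRIP1 places at the start codon, at the stop codon and within the coding sequence. The start-codon sites ran from 16340267 to 16340567 in U2OS shMETTL14 and 16340327 to 16340627 in U2OS shNC, and from 16340152 to 16340617 in 143B shMETTL14 and 16340242 to 16340617 in 143B shNC. Their p-values were 1.12e-08 in U2OS shMETTL14 and 1.41e-10 in U2OS shNC, and 4.57e-09 in 143B shMETTL14 and 2.51e-11 in 143B shNC. Around the stop codon, p-values were 1.20e-05 in U2OS shMETTL14 and 1.58e-14 in U2OS shNC, and 5.01e-12 in 143B shMETTL14 and 3.16e-12 in 143B shNC. The U2OS shMETTL14 site there, 16337142 to 16337513, was annotated to coding sequence alone, while the U2OS shNC site at 16336912 to 16337411 also reached the 3' UTR. The place within the coding sequence ran from 16339055 to 16339174 in U2OS shMETTL14 and 16338919 to 16339204 in U2OS shNC, and from 16338905 to 16339234 in 143B shMETTL14 and 16338949 to 16339189 in 143B shNC.

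NRIP1 lost none of its start-codon or stop-codon sites. In U2OS the loss was 1 coding site at 16337859 to 16338069 (p-value 0.000468). In 143B there were 4 losses, at 16336007 to 16336186 in the 3' UTR (0.00112), at 16338188 to 16338338 (0.000776) and 16338517 to 16338696 (0.000162) in the coding sequence, and a spliced 5' UTR site between 16386748 and 16437066 (0.000955). The site at 16338517 to 16338696 was lost in 143B, while its place was kept in U2OS with p-values of 0.000447 in shMETTL14 and 0.000123 in shNC. One broad 143B shMETTL14 site, 16336903 to 16337650, overlapped 2 shNC sites, and the weaker of them, 16337543 to 16337620, had a larger p-value (0.00269) than any lost NRIP1 site.

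**Figure D4:**
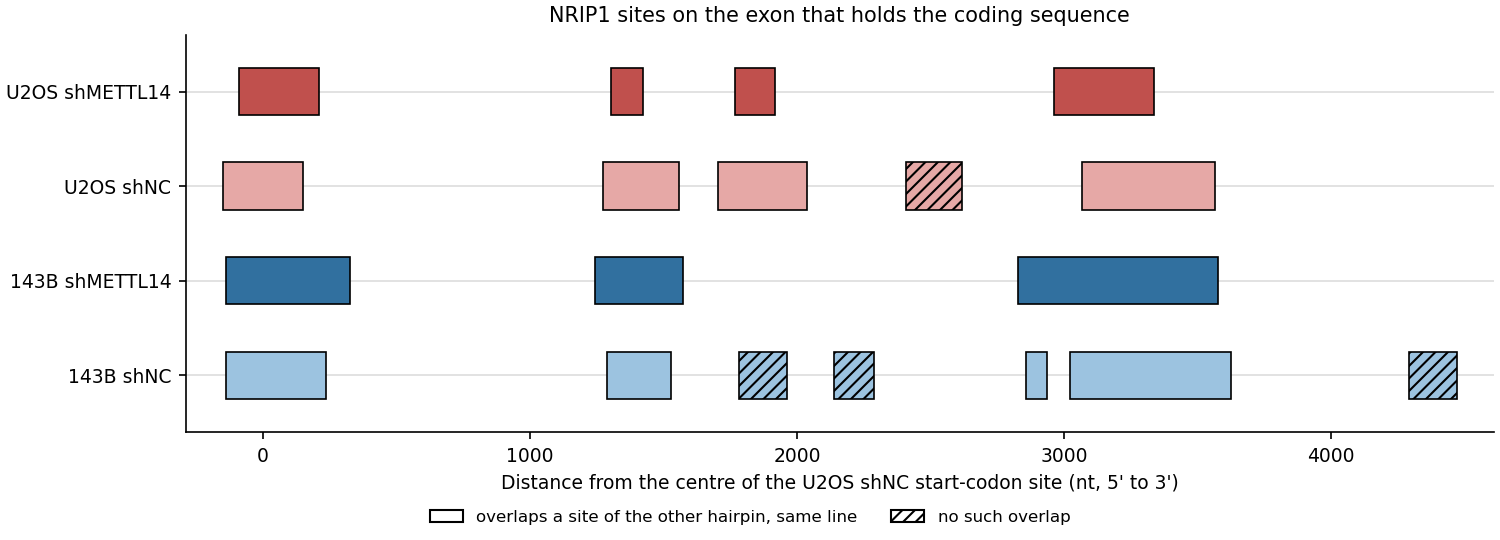
NRIP1 sites on the exon that holds the coding sequence in the 4 lists, as distance in nt from the centre of the U2OS shNC start-codon site, 5' to 3'; the spliced 5' UTR site of 143B shNC is outside this exon. Plain boxes overlap a site of the other hairpin in the same line and hatched boxes do not, and the 3 places held by all 4 lists are plain throughout.

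RARA, the retinoic acid receptor alpha on the plus strand of chromosome 17, had 2 sites in U2OS shMETTL14 and 2 in U2OS shNC, and 1 site in 143B shMETTL14 and 1 in 143B shNC, with 0 lost and 0 gained. The place around the stop codon was held by all 4 lists and was listed on 5 transcripts in each. It ran from 38512375 to 38512750 in U2OS shMETTL14 (highest fold enrichment 18.5, smallest p-value 1.26e-17) and from 38511591 to 38512945 in U2OS shNC (6.69, 3.98e-15). In 143B it ran from 38511621 to 38512602 in shMETTL14 (7.26, 1.26e-11) and from 38512268 to 38512750 in shNC (18.3, 8.91e-09). By fold enrichment it stood at or above 98.6% of the peaks in U2OS shMETTL14 and likewise in 143B shNC. RARA also had a start-codon place in U2OS alone, at 38487447 to 38487632 in shMETTL14 and 38487403 to 38487542 in shNC, with p-values of 9.77e-05 in shMETTL14 and 0.000309 in shNC.

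RARG and RXRA were listed in U2OS alone and kept their 1 site with either hairpin. RARG, the gamma receptor on chromosome 12, had a 5' UTR site at 53625916 to 53626381 in U2OS shMETTL14 (fold enrichment 7.63, p-value 0.000372) and at 53625857 to 53626354 in U2OS shNC (5.14, 3.98e-05). RXRA, the partner of both receptors on chromosome 9, had a 3' UTR site at 137328472 to 137328651 in U2OS shMETTL14 (2.84, 5.01e-06) and at 137328472 to 137328597 in U2OS shNC (2.14, 7.94e-05). So 2 of the 8 genes had a site in U2OS and none in either 143B list, against 14.8% of the 7181 genes with a site in U2OS.

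CRABP2 carries retinoic acid from the cytosol to its receptors in the nucleus, and its gene lies on the minus strand of chromosome 1. There was 1 site in U2OS shMETTL14 and 2 in U2OS shNC, and 2 sites in 143B shMETTL14 and 1 in 143B shNC. A place over the coding sequence, reaching the stop codon in 143B, was held by all 4 lists, with p-values of 3.16e-07 in U2OS shMETTL14 and 1.26e-06 in U2OS shNC, and 7.94e-12 in 143B shMETTL14 and 1.26e-12 in 143B shNC. In U2OS the short 3' UTR site of shNC, 156669515 to 156669573 (p-value 0.000331), was lost. In 143B the covered length was 670 nt in shMETTL14 and 672 nt in shNC: the single shNC site from 156669427 to 156670778 was matched by 2 shMETTL14 sites, at 156669398 to 156669777 and 156669809 to 156670778.

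DHRS3 reduces retinaldehyde back to retinol and so limits the supply of retinoic acid, and its gene also lies on the minus strand of chromosome 1. It had 0 sites in U2OS shMETTL14 and 1 in U2OS shNC, and 1 site in 143B shMETTL14 and 1 in 143B shNC. The U2OS shNC site crossed the start codon at 12677292 to 12677410, with a fold enrichment of 10.9, at or above 94.5% of its list, and a p-value of 4.37e-05. The 143B sites lay in the 5' UTR, at 12677440 to 12677678 in shMETTL14 (3.32, 0.000186) and 12677559 to 12677707 in shNC (3.13, 0.000309). The lines thus held neighbouring places that did not overlap, with the 143B shMETTL14 site 29 nt from that of U2OS shNC.

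Lost sites of the 8 genes were shorter than kept ones at the median, as over all sites. In U2OS the median covered length of an shNC site was 120 nt for the 10 lost and 263 nt for the 12 kept, beside 123 nt and 281 nt for all lost and all kept sites. In 143B it was 165.5 nt for the 8 lost and 376 nt for the 7 kept, beside 120 nt and 269 nt over all sites. By p-value the median lost site stood at or beyond 30.3% of its list and the median kept site at or beyond 35.6% in U2OS, and at 13.2% and 67.3% in 143B. The strongest class by p-value held 3 of the genes' shNC sites in each line, and 0 of 3 were lost in each. In the weakest class 3 of 5 were lost in U2OS, against 64.9% of all such sites, and 6 of 7 in 143B, against 52.3%. Weighting the share lost in each class by where the genes' sites fell gave 36.2% for U2OS, beside the 45.5% seen, and 34.5% for 143B, beside the 53.3% seen.

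**Figure D5:**
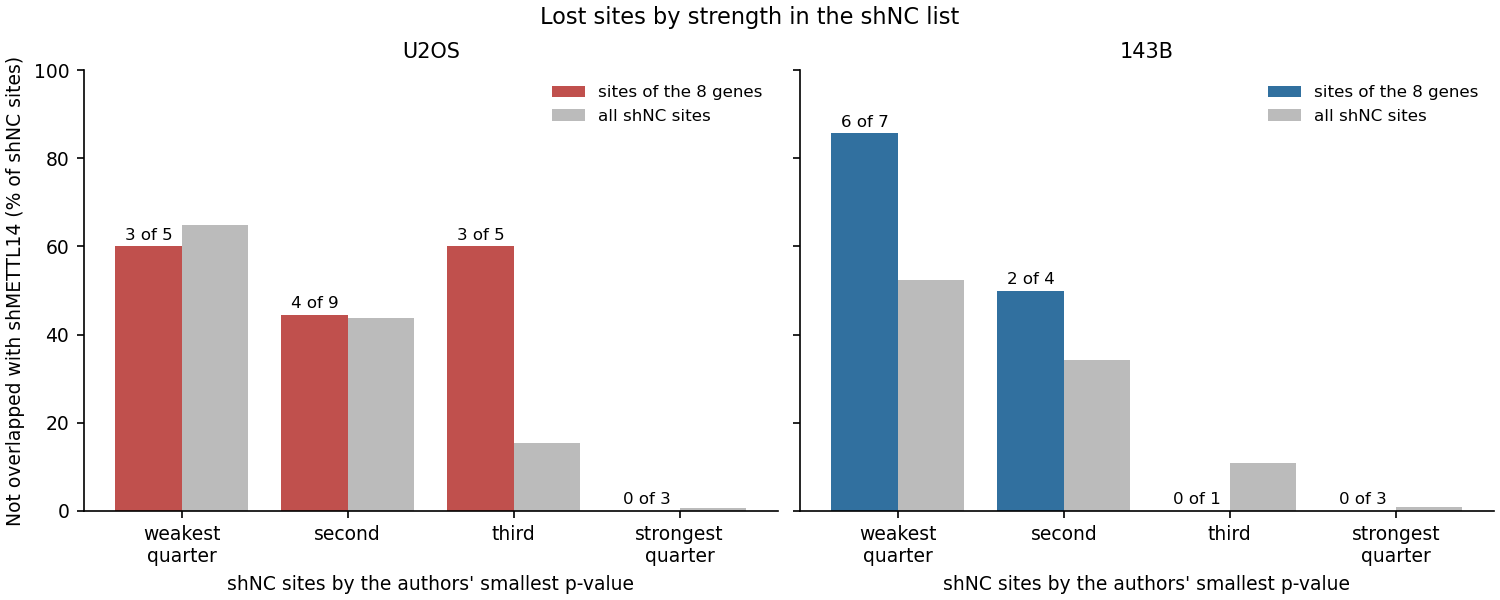
Share of shNC sites with no shMETTL14 overlap (%), by 4 equal classes of the authors' smallest p-value per site, for the 8 genes (coloured, with counts) and for all sites of the list (grey), U2OS left and 143B right. All-site shares drop from 64.9% in the weakest to 0.684% in the strongest class of U2OS, and the third U2OS class, where 3 of 5 sites were lost, holds 3 MN1 sites.

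By position, no site across a stop codon was lost, of 2 in U2OS shNC and 3 in 143B shNC, and of all stop-codon sites 14.8% were lost in U2OS and 10.8% in 143B. Coding sites were lost in 6 of 11 cases in U2OS and 5 of 7 in 143B, against 32.7% and 24.5% of all coding sites in that order. The lost coding sites lay on MN1, NCOA3 and NRIP1 in U2OS, and on NCOA3 and NRIP1 in 143B, so few genes gave these counts. In the 5' UTR 1 of 2 was lost in U2OS and 2 of 3 in 143B, against 48.2% and 45.5% of all. In the 3' UTR 2 of 4 were lost in U2OS and 1 of 1 in 143B, against 39.9% and 32.0% of all. Across the start codon 1 of 3 was lost in U2OS and 0 of 1 in 143B, against 25.2% and 22.0% of all. Coding sequence held 11 of the genes' 22 sites in U2OS shNC, where it held 41.6% of all sites.

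By gene, 6 of the 8 had a site in both shNC lists, and 3 of these, MN1, NCOA3 and NRIP1, had fewer sites with shMETTL14 in both lines. Over all genes with a site in both shNC lists the share was 11.1%. Genes with more sites meet this more often: it was 24.3% for the 635 genes with at least 7 sites over both shNC lists. MN1, NCOA3 and NRIP1 belong to that class and the other 5 do not. MN1 and NCOA3 stand exactly at its cut of 7, so a higher cut would leave both out. RARA, RARG and RXRA had the same number of sites with shMETTL14 as with shNC in each line. Presence over the 4 lists was alike for NCOA3, NRIP1, RARA and CRABP2, which had a site in each, so 4 of the 8 did, against 51.0% of all genes with a site. RARG and RXRA shared the U2OS pattern, and MN1 and DHRS3 each had a pattern of their own.

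The lines were also compared under the control hairpin. Of the 22 U2OS shNC sites 13 had no overlap in 143B shNC (59.1%, interval 36.4 to 79.3), against 34.3% of all U2OS shNC sites. Conversely, 7 of the 15 143B shNC sites had none in U2OS shNC (46.7%, interval 21.3 to 73.4), against 36.9% of all. MN1 gave 5 of the 13, and the rest lay on NCOA3, NRIP1, RARA, RARG, RXRA and DHRS3. Joined over the lists, the 8 genes had 27 places, of which 6 were held by all 4 lists (22.2%, against 30.1% of all places) and 12 by 1 list alone (44.4%, against 37.8%). The 6 were 3 on NRIP1 and 1 each on RARA, CRABP2 and NCOA3, and the NCOA3 place joins neighbouring sites of one line through an overlap with the other line.

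A wider list of 63 genes, without the 8, had 35 genes with a site. It held genes of retinoic acid supply, sensing and response, and also 6 genes tied to MN1. It had 77 sites in U2OS shMETTL14 and 79 in U2OS shNC, of which 16 were lost (20.3%) and 13 gained (16.9%). In 143B it had 81 sites in shMETTL14 and 81 in shNC, of which 19 were lost (23.5%) and 24 gained (29.6%). These shares lie below the whole lists in U2OS and near them in 143B. Coactivators of the receptors, the class with the most sites, gained 7 of 36 sites and lost 3 of 32 (9.38%) in U2OS, and gained 7 of 31 and lost 5 of 33 (15.2%) in 143B. Corepressors gained 4 of 22 sites and lost 4 of 22 (18.2%) in U2OS, and gained 4 of 20 and lost 2 of 18 (11.1%) in 143B. All sites of the lists were lost at 31.2% in U2OS and 24.6% in 143B, and gained at 24.9% in U2OS and 32.0% in 143B.

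Response genes and genes tied to MN1 had few sites to read against those shares. Targets of retinoic acid gained 1 of 6 sites and lost 4 of 9 (44.4%) in U2OS, and gained 2 of 8 and lost 5 of 12 (41.7%) in 143B. Genes tied to MN1 gained 1 of 5 sites and lost 4 of 8 in U2OS, and gained 6 of 13 (46.2%) and lost 3 of 10 (30.0%) in 143B. In U2OS every shNC site was lost for 4 of the wider list's 29 genes with one. This share was not counted over all genes, so it cannot be read as high or low. Among them were MEIS1 and MEIS2, homeodomain factors of the TALE class, each with a single U2OS shNC site. DOT1L, a histone H3 lysine methyltransferase tied to MN1, also lost its single U2OS shNC site. MEIS2 had 4 sites in 143B shMETTL14 and 3 in 143B shNC, and DOT1L had 2 in 143B shMETTL14 and 3 in 143B shNC. In 143B every shNC site was lost for 7 of the 29 genes with one, against 16.6% of all genes with a site in 143B shNC. Single sites were lost from RARB, the beta receptor and a classic retinoic acid target, from the binding protein CRABP1, and from BTG2, PPARD, VDR and TBL1XR1, while KLF4 lost 2. Of these, PPARD also gained 2 sites and VDR, the vitamin D receptor, gained 3. In U2OS, TBL1XR1 had 3 sites with shMETTL14 and 1 with shNC, and BTG2 had 3 with shMETTL14 and 2 with shNC, with 0 lost from either gene.

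Of the wider list's genes with a site in shMETTL14, 3 of 27 in 143B had none in shNC, against 15.5% of all such genes, and 0 of 25 in U2OS, against 12.4%. RDH10, which makes retinaldehyde from retinol, had 2, the fatty acid and retinoic acid carrier FABP5 had 1, and the histone methyltransferase KMT2A had 1. RDH14, BHLHE40 and LCOR had sites in all 4 lists with 0 lost and 0 gained. No site was listed for the retinoic acid hydroxylases CYP26A1, CYP26B1 and CYP26C1.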

How the data were processed

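Reads were handled by the authors with FastQC 0.11.5, Trimmomatic and HISAT2 on hg19 (GRCh37), per the submitters' processing notes. Which peak caller, threshold and annotation they used is not given in the sources used here. Per the file headers, each list gives a p-value and a linear fold enrichment (ratio) per peak, made by the authors, with spliced blocks and transcript region; input values and depth were not analysed here.

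Peaks of a list that overlap on the same strand were joined to sites, since a locus is listed once per isoform, and a site took its highest fold and smallest p-value. Sites shared at least 1 base to count as overlapping. The code was tested on simulated lists. Of the wider list, symbols or unambiguous RefSeq synonyms were matched. Members and lists were chosen with earlier results of these data known. The text names all 8 members, and of the wider list those with every shNC site lost or shMETTL14 sites alone in 1 line, or nothing lost or gained; some genes of these lists are not reported here. Alternatives changed overlap, thresholds, unit and blocks; the longest transcript was added after seeing the data. Python 3.11.15, numpy 2.4.6, pandas 2.3.3, scipy 1.17.1 and matplotlib 3.10.9 were used.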

Additional observations from a re-analysis of the deposited data

Results flagged for a closer look

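CRABP2 was the 1 gene of the 8 whose number of sites differed in opposite directions between the lines: shMETTL14 minus shNC was -1 site in U2OS and 1 site in 143B. With 1 list per group the difference between the lines was not tested. In 143B the covered length was 670 nt with shMETTL14 and 672 nt with shNC.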

How the results depend on the processing

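Over 8 alternatives for each of 7 shares, 41 of 56 values stayed inside the interval of the value reported. Requiring 50% of the bases of each site moved losses in U2OS to 68.2% (all sites 49.0%), gains in U2OS to 46.2% (all sites 44.9%) and MN1 losses in U2OS to 100%. Counting sites within 100 nt as shared gave gains of 0% in both lines. With peaks at or above their list's median fold enrichment, U2OS losses were 14.3% (1 of 7 sites, all sites 41.8%), gains 0% in both lines, and MN1 kept its 1 site in U2OS (0% lost). With p-values at or below the shNC median, gains were 0% in both lines, 143B losses 0% (0 of 4 sites, all sites 14.9%), MN1 losses in U2OS 100% (3 of 3 sites), and 0% of the 4 sites of 143B shNC were absent from U2OS shNC. With the longest transcript alone, U2OS gains were 0% (0 of 11 sites). The cause was not tested beyond the smaller numbers of sites given. The share lost exceeded that of all sites in 7 of 8 alternatives for U2OS, 7 of 8 for 143B and 7 of 8 for MN1, the exceptions being those named, and the share gained did in 1 of 8 for U2OS and 0 of 8 for 143B. The U2OS shNC sites absent from 143B shNC exceeded all sites in 8 of 8, and the converse did in 6 of 8. No paired analysis was possible because the shares come from no test and each line has 1 list per hairpin, so each line is given on its own. Depth is unknown, and the order of strength rests on the authors' p-values.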
